A study of Mus musculus with 4 samples.

Results

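The autosomal genes for the pore-forming subunits of AMPA and NMDA receptors were examined for TOP2B cleavage complexes in cultured mouse cortical neurons. The members were taken by gene name and by no cut on a measured value, though earlier results of these data were known. They were Gria1, Gria2 and Gria4 of the AMPA family, and Grin1, Grin2a, Grin2b, Grin2c, Grin2d, Grin3a and Grin3b of the NMDA family. Gria3, the AMPA receptor gene on chromosome X, was left out because the rule took autosomal genes, so the AMPA values below cover 3 genes and not the whole family. A peak belonged to a gene when its summit, the base of highest signal, lay in the gene's span on mouse build GRCm38 or within 10 kb of it. This rule placed 31 of the 35315 autosomal peaks at the 10 genes, which are 10 of 20665 autosomal protein-coding genes, and 9 of the 10 held at least 1 summit. The cells were wild-type cortical neurons dissociated from Swiss-Webster embryos at day 16 of gestation and kept in culture, and every library came from cells given 50 µM etoposide for 30 min, so no untreated group was described. The labels give 2 libraries of TOP2B chromatin immunoprecipitation and 2 of input DNA, without saying whether they came from separate cultures. All values below come from 1 list of peaks called on pooled libraries. They therefore have no replicate spread, samples could not be compared, and sequencing depth is unknown. Neither transcripts nor cells were measured, so the labelled cell type could not be checked against markers.

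TOP2B is the type II topoisomerase of postmitotic neurons. It passes one DNA duplex through a break in another and is covalently joined to the cut ends while the break is open, and etoposide hinders resealing, which holds the enzyme on the DNA. AMPA receptors, built from GluA subunits encoded by the Gria genes, carry most fast excitatory transmission in the cortex. NMDA receptors combine the obligatory GluN1 subunit with GluN2 or GluN3 subunits, admit calcium, and act as detectors of coincident pre- and postsynaptic activity.

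Promoter windows from RefSeq (build GRCm38.p6, 250 bases before to 50 after a gene's start) matched 6 of the 10 members, namely Gria2, Gria4, Grin1, Grin2c, Grin2d and Grin3b. None of these 6 windows held a summit, which 142 of 20085 windows of autosomal protein-coding genes (0.707%) did. The promoters of the 3 members with a summit nearest their start are shown. In each case that summit was called kilobases outside the window. They are printed 5′ to 3′ on the gene's strand with each CG dinucleotide in capitals.
Grin1 (chr2:25319138-25319437, minus strand): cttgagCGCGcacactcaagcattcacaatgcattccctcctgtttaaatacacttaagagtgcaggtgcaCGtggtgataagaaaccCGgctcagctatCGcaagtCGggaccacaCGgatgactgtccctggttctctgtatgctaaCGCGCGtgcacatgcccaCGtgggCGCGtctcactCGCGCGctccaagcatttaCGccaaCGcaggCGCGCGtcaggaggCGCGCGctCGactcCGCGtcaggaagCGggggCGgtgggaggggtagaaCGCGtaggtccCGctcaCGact
Gria2 (chr3:80802786-80803085, minus strand): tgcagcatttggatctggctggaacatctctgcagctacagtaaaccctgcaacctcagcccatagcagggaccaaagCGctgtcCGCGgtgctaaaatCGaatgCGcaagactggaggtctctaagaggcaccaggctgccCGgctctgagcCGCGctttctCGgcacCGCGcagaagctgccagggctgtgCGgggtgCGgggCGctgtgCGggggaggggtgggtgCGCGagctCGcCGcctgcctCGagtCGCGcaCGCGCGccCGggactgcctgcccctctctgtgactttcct
Grin3b (chr10:79970474-79970773, plus strand): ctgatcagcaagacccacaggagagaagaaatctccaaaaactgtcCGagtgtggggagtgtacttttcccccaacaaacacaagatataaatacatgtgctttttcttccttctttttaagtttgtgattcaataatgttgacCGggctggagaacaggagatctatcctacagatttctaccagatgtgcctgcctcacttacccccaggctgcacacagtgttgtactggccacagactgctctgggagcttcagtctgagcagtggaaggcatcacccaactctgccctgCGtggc

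The Grin1 window held 33 CG dinucleotides, more than 88.2% of the promoter windows, and the Gria2 window held 26, more than 76.5%. The Grin3b window held 3, more than 17.5%, against a median of 14 over the windows (a CG reads the same on both strands, and 95.6% of windows held at least 1). The deposited q (false discovery rate) of the nearest summit was 0.272 at Grin1, 0.00437 at Gria2 and 0.177 at Grin3b. This summit lay 3.86 kb from the Grin1 start, 4.00 kb from the Gria2 start and 5.28 kb from the Grin3b start, in each case inside the gene. Grin1 and Gria2 were thus 2 of the 6 members with a summit within 5 kb of the start, where 18.0% of all windows had one. The Gria2 start used here, 80802835, lies inside the gene's span. From the upper end of that span the same Gria2 summit was 5395 bp away, outside 5 kb. Nearest summits were farther for Grin2c (7.13 kb, upstream), Grin2d (28.8 kb) and Gria4 (59.4 kb).

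**Figure D1:**
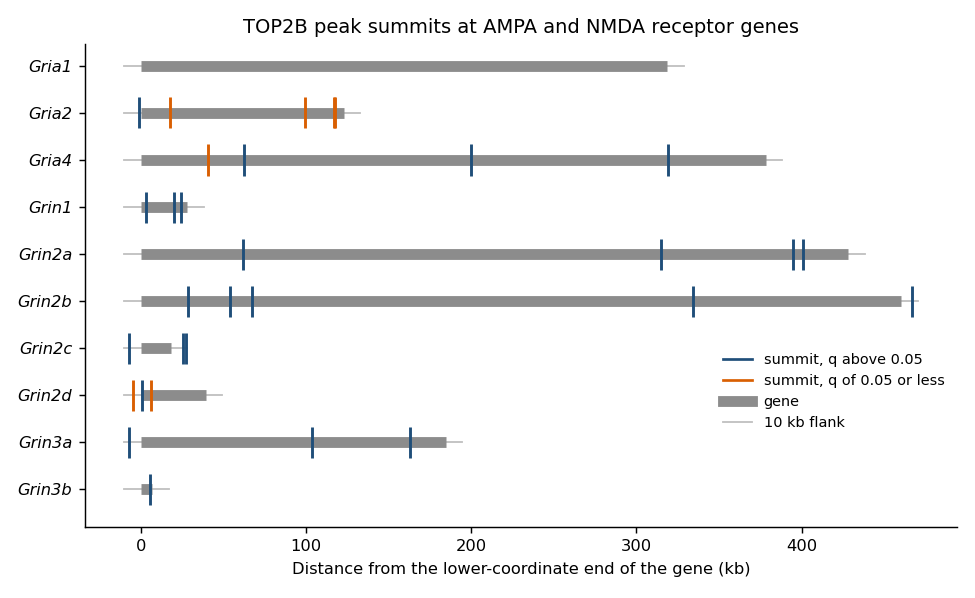
Each row is a gene drawn to scale from its lower-coordinate end (distance in kb), with its 10 kb flanks as thin lines and each summit as a vertical tick, coloured by the deposited q. The Gria1 row is empty, and 4 of the 7 summits with a q of 0.05 or less stand on the Gria2 row.

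Among AMPA receptor genes, the summits were unevenly divided. Gria2 held 5 summits, Gria4 held 4 and Gria1 held 0. Per length this was 3.50 per 100 kb for Gria2 (exact 95% Poisson interval 1.14 to 8.17), 1.00 for Gria4 (0.274 to 2.57) and 0 for Gria1 (0 to 1.09). These intervals cover counting error only.

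Gria2 encodes GluA2, the subunit whose edited form makes AMPA receptors nearly impermeable to calcium. Its span on chromosome 3 runs from 80681450 to 80804227 and lies on the minus strand, so that its start is at the higher coordinates. The summit nearest the start, at 80798832, had a deposited fold enrichment over control of 3.63. This fold was read as the ratio of signal in the immunoprecipitate to that in the control, with 1 added to each. Its deposited q, the false discovery rate, was 0.00437, and the fragment pileup reconstructed from the deposited fold and p was 20. A second summit lay 564 bp farther into the gene, at 80798268, with a fold of 3.08, a q of 0.0318 and a pileup of 18. The pair lay 4.00 and 4.57 kb downstream of the start and were the closest summits at any member. Another within 1 kb was found at 3.09% of autosomal summits.

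The other Gria2 summits were spread along the gene. One at 80780838, 22.0 kb downstream of the start, had a fold of 3.24, a q of 0.0173 and a pileup of 19. One at 80698981, 103.9 kb downstream, repeated the fold of 3.63 and the q of 0.00437. The last, at 80680222, lay 1228 bp beyond the gene's 3′ end with a fold of 2.76 and a q of 0.0884. All 4 summits inside Gria2 exceeded 2.94, the upper quartile of fold over autosomal peaks, whereas the one outside did not.

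Gria4 encodes GluA4, a subunit prominent in fast-spiking interneurons and early development. It spans 378.3 kb of chromosome 9 on the minus strand, from 4417893 to 4796234. Its summit of highest fold, at 4458684, had a fold of 3.63, a q of 0.00437 and a pileup of 20, and lay 40.8 kb inside the 3′ end. The others, at 4480390, 4617439 and 4736829, had folds of 2.77, 2.77 and 2.94 and q-values of 0.110, 0.110 and 0.0675. The summit at 4736829 was the one nearest the start, 59.4 kb downstream of it.

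Gria1 encodes GluA1, the subunit most closely tied to activity-dependent receptor insertion at synapses. Its span of 318.7 kb on chromosome 11, from 57011571 to 57330244, and both flanks were without a summit. Of 691 autosomal protein-coding genes of 250 kb or more, 98.8% held a summit under the same rule, and Gria1 was among the 8 that did not. Of the 494 genes longer than Gria1, 3 held none. The nearest summits lay 18.1 kb below the gene (fold 2.42) and 74.3 kb above it (fold 2.42), both with a q of 0.272, and so outside the 10 kb rule. They bounded a gap of 411.0 kb, where the median gap between neighbouring autosomal summits was 41.1 kb and the 99th percentile 380.4 kb. A gap at least as long occurred 273 times among 35296 (0.773%). One of these reached Gria4 as well: 439.9 kb, from its summit nearest the start to the next one above the gene. The length of the Gria1 gap is not a separate result. Because the 338.7 kb of Gria1 and its flanks held 0 summits, the gap had to be at least that long. Whether reads in the Gria1 interval were fewer or could not be placed was not tested, since the list gives called peaks and no coverage between them.

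**Figure D2:**
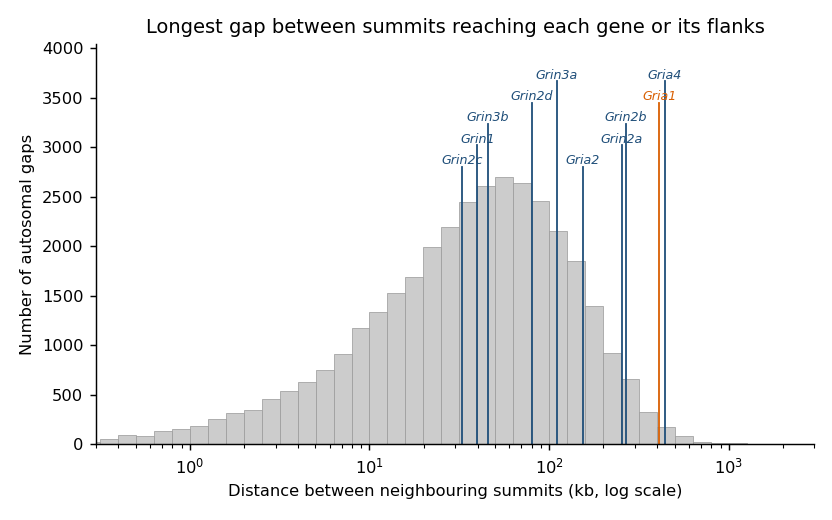
Grey bars count the distances between neighbouring autosomal summits (kb, log scale). Vertical lines mark the longest gap that reaches each gene or its flanks, with Gria1 (411.0 kb, orange) and Gria4 (439.9 kb) farthest to the right. Of the Gria4 gap, 380.5 kb lay above the gene. The bars count single gaps and each line is a maximum, so a long gene tends to lie farther right by construction.

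NMDA receptor genes held 22 summits. Each of the 7 had at least 1, beside 55.5% of autosomal protein-coding genes and 93.3% of those of 100 kb or more, a length that Grin2a, Grin2b and Grin3a exceed. Their density was 1.69 per 100 kb (exact 95% Poisson interval 1.06 to 2.55), against 1.02 (0.468 to 1.94) over the 3 AMPA genes. The ratio of AMPA to NMDA density was 0.607, with an exact 95% interval of 0.246 to 1.37 that includes 1, so a difference between the families was not resolved at these counts. The ratio turned to 1.32 (0.443 to 3.85) over peaks with a fold at or above the list's median and to 3.71 (0.607 to 38.9) over peaks with a q of 0.05 or less, intervals that also include 1.

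Grin1 encodes GluN1, the subunit present in every NMDA receptor. Its 28.0 kb on chromosome 2, from 25291177 to 25319187 on the minus strand, held 3 summits and its flanks none. Those at 25315330 and 25311137 lay 3.86 and 8.05 kb downstream of the start, with folds of 2.42 and 2.59 and q-values of 0.272 and 0.177. The peak at 25311137 was 399 bp wide, the widest of the 31. The third, at 25294023, lay 2846 bp inside the 3′ end with a fold of 2.77 and a q of 0.110. It also lay within Grin1os, a long noncoding RNA gene on the opposite strand. No Grin1 summit had a q of 0.05 or less, although the gene's density of 6.25 per 100 kb (1.29 to 18.3) was among the highest.

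Grin2a and Grin2b encode GluN2A and GluN2B, the principal GluN2 subunits of the forebrain, with GluN2B prevailing before birth and GluN2A rising afterwards. These are the longest members, 428.2 kb on chromosome 16 and 460.4 kb on chromosome 6, and they held 4 and 5 summits. Grin2a summits at 9629608, 9882947, 9962972 and 9968758 had folds of 2.59, 2.49, 2.41 and 2.77. Those at 9962972 and 9968758 were 5.79 kb apart, and the other pair stood alone by 80.0 kb or more. Grin2b summits inside the gene, at 135741802, 135767216, 135780336 and 136047771, had folds of 2.77, 2.25, 2.59 and 2.77. The fifth, at 136180023, lay 6408 bp above the gene with a fold of 2.25. The summit at 135741802 also lay in Gm14329, a long noncoding RNA gene. Densities were 0.892 per 100 kb for Grin2a (0.243 to 2.29) and 1.04 for Grin2b (0.338 to 2.43), a ratio of Grin2b to Grin2a of 1.17 (0.251 to 5.88). Folds did not exceed 2.77, the list's median, at either gene. The lowest q was 0.110 at both.

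Grin2c and Grin2d encode GluN2C and GluN2D, subunits with weaker magnesium block that are typical of cerebellar granule cells and of interneurons and the early brain, respectively. Grin2c, 18.1 kb on chromosome 11, held no summit inside the gene. Inside the span, 38.1% of autosomal protein-coding genes of all lengths held one, a share not matched to a gene this short. With flanks, 50.8% of genes under 100 kb and 93.3% of those of 100 kb or more held a summit. Its 3 summits were in the flanks and each lay within a neighbouring gene. The summit at 115276742 (fold 2.94, q 0.0675) was 9445 bp above Grin2c but 227 bp from the start of Fdxr, a ferredoxin reductase gene. That at 115274371 (fold 2.59, q 0.177) also lay in Fdxr. That at 115241644, in Tmem104, had the lowest fold of the 31, 1.91, with a q of 0.441 and a control level of 8.40 at the summit against the list's most common level of 4.78. Summits just outside the rule lay 11.6 and 17.1 kb from Grin2c, with folds of 2.42 and 2.77. The density of 7.87 per 100 kb given to Grin2c thus rests on peaks that other genes share.

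Grin2d carried the peak of highest fold among the 31. Its span on chromosome 7 runs from 45831883 to 45871194 on the minus strand. The summit at 45827336 had a fold of 3.80, a q of 0.00162 and a pileup of 21 in a peak 387 bp wide. It lay 4547 bp beyond the 3′ end of Grin2d, inside Grwd1, a gene of ribosome biogenesis, at 3453 bp from that gene's start. Inside Grin2d, a summit at 45837913, 6030 bp from the 3′ end, had a fold of 3.29, a q of 0.0208 and a pileup of 18. The summit at 45832707 lay 824 bp inside the 3′ end, with a fold of 2.77 and a q of 0.110. It made Grin2d the 1 member of 10 with a summit within 1 kb of a gene end, against 8.68% of autosomal protein-coding genes, and the end concerned was the 3′ one, 1918 bp from the start of Grwd1. The next nearest to an end were at Grin3b, 1183 bp inside, and at Gria2, 1228 bp outside, both at the 3′ end. The nearest summit to the Grin2d start used here, 45866681, was 28.8 kb downstream of it. That summit was 33.3 kb from the upper end of the span.

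Grin3a and Grin3b encode the GluN3 subunits, which bind glycine and lower calcium entry. Grin3a, 184.4 kb on chromosome 4, held summits at 49765008 and 49824680 with folds of 2.22 and 2.06 and q-values of 0.258 and 0.339. Their control levels, 7.11 and 7.76, were above the most common level, and the pileup of 17 at each of them was above the list's median of 15. The remaining summit, 7023 bp below the gene at 49654588 in Rnf20, had a fold of 2.77. Grin3b, the shortest member at 6.79 kb on chromosome 10, held 1 summit at 79976007 with a fold of 2.59 and a q of 0.177.

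**Figure D3:**
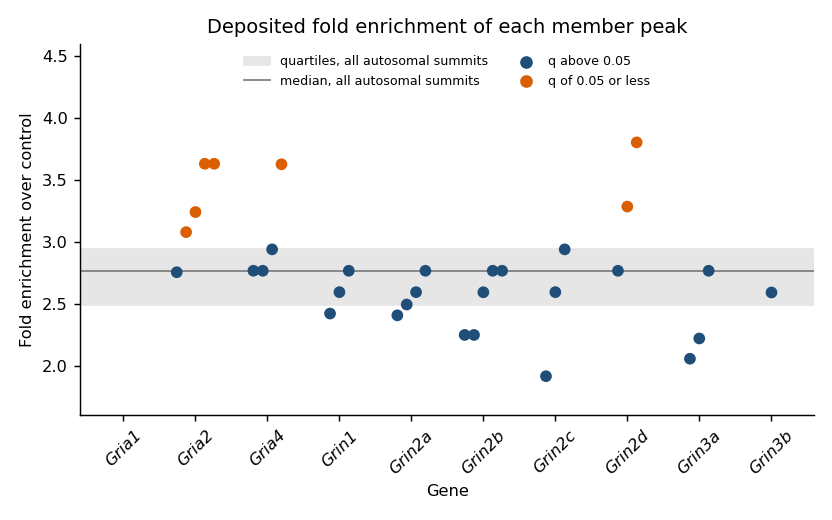
Points give the deposited fold enrichment of each member peak, by gene, in orange where the deposited q was 0.05 or less. The grey band spans the quartiles of all autosomal peaks (2.49 to 2.94) and the line their median (2.77). The points above the band that are orange belong to Gria2, Gria4 and Grin2d.

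Peaks with a q of 0.05 or less were 7 of the 31 (22.6%, exact binomial interval 9.59 to 41.1), beside 23.5% of autosomal summits. They lay at 3 of the 10 genes, Gria2 with 4, Grin2d with 2 and Gria4 with 1, where 22.2% of autosomal protein-coding genes and 56.2% of those of 100 kb or more had such a summit. By family they were 5 of 9 AMPA summits (55.6%, 21.2 to 86.3) and 2 of 22 NMDA summits (9.09%, 1.12 to 29.2), a difference that was not tested. Inside gene bodies the counts were 5 of 8 for AMPA genes and 1 of 16 for NMDA genes. Since 4 of the 5 were at Gria2, the AMPA count describes that gene more than its family, and without Gria2 it was 1 of 4. A peak with a q above 0.05 is weak evidence for a site when taken alone, and 24 of the 31 are of this kind.

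The remaining measures of the 31 peaks lay near those of the list. Their median fold was 2.77 (quartiles 2.54 and 2.94), beside 2.77 (2.49 and 2.94) for autosomal peaks. The median pileup was 15 in both, within a range of 12 to 21 at the members. Pileup and control level were solved from fold and p, so these are not separate measures. Folds are also tied: a pileup of 15 at the most common control level gives 2.77, so equal medians are a coarse match. The median width was 231 bp (quartiles 192.5 and 271), beside 222 bp (193 and 269), and 8 of 31 (25.8%) had the minimum width of 190 bp, beside 22.3%. The most common control level applied to 21 of 31 (67.7%), beside 71.1%. Another summit within 10 kb was present for 12 of 31 (38.7%), beside 30.8%.

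Ordered by density, the members ran from Grin2c, Grin1, Grin2d, Grin3b (3.73 per 100 kb, 0.0945 to 20.8) and Gria2 to Grin3a (1.47, 0.303 to 4.29), Grin2b, Gria4, Grin2a and Gria1. Of the 9 pairs of neighbours in this order, the exact 95% interval of the density ratio excluded 1 in 0, so no step of the order was larger than its counting error. Of all 45 pairs, the interval excluded 1 in 8, without adjustment for their number, and 4 of these set Gria1 below Gria2, Grin1, Grin2c or Grin2d. The ratio of Gria2 to Gria1 has no finite value, and its interval began at 2.17. The interval for Grin1 over Grin2a ran from 1.03 to 41.4, and the other 3 pairs set Grin2c above Grin2a, Grin2b and Gria4. The 4 pairs with Grin2c rest on its flank summits. With flanks of 0 or 5 kb Grin2c held 0 summits and so could not be the higher gene of any pair. With flanks of 20 kb it was the higher gene in 5 of the 8 pairs whose interval then excluded 1. Gria1 stayed below Gria2, Grin1 and Grin2d with flanks of 0, 5, 10 and 20 kb, and Grin1 above Grin2a with flanks of 0, 5 and 10 kb but not 20 kb. The comparison of pairs across flanks was added after the data were seen.

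**Figure D4:**
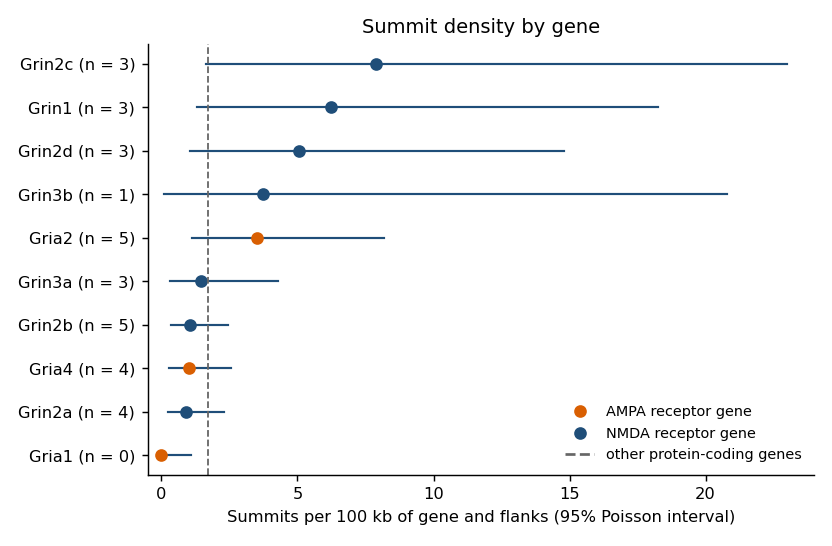
Points give summits per 100 kb of gene and 10 kb flanks, with exact 95% Poisson intervals as lines, for AMPA (orange) and NMDA (blue) receptor genes. The dashed line is the density over other autosomal protein-coding genes (1.72), which the interval of Gria1 alone (0 to 1.09) does not reach.

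Gene length moved with this order. The 4 members under 100 kb (Grin1, Grin2c, Grin2d and Grin3b) held 5.81 summits per 100 kb (2.78 to 10.7) and the 6 of 100 kb or more held 1.04 (0.646 to 1.59). Over all autosomal protein-coding genes with flanks the values were 1.92 and 1.53. A summit was present at 4 of 4 short members, where 50.8% of genes under 100 kb had one, and at 5 of 6 long members, where 93.3% of genes of 100 kb or more had one. Within the short members, the bodies held 6 summits in 92.2 kb (6.50 per 100 kb, 2.39 to 14.2) and the flanks 4 in 80 kb (5.00, 1.36 to 12.8), 3 of the 4 at Grin2c. Over all 10 members the bodies held 24 summits in 1985.0 kb (1.21, 0.775 to 1.80) and the flanks 7 in 200 kb (3.50, 1.41 to 7.21), and 5 of these 7 lay in a neighbouring protein-coding gene.

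The 9 of 10 members with a summit stand beside 55.5% of all autosomal protein-coding genes, a background that depends on length as above. As a group the members had 1.42 summits per 100 kb (0.964 to 2.01), beside 1.72 in other protein-coding genes (ratio 0.824, exact 95% interval 0.560 to 1.17). Gria1 held 0 summits, so leaving it out could only raise the ratio. It was then 0.975 (0.662 to 1.38), which is not a separate result. Kainate and delta receptor genes, 7 ionotropic relatives, had 1.68 per 100 kb, and the 8 metabotropic receptor genes, which signal through G proteins, had 1.23. The ratios of the members to these groups were 0.843 (0.534 to 1.30) and 1.15 (0.697 to 1.89). The intervals of all members together against each of these groups include 1, so no difference in density from these genes was resolved.

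Proteins that assemble with, anchor or cluster these receptors were taken as a list of 30 autosomal genes. A summit was found at 23 of them, again beside 55.5% of protein-coding genes, and a summit with a q of 0.05 or less at 13, beside 22.2%. The list included 12 genes of 100 kb or more. All 12 held a summit, beside 93.3% of such genes, as did 11 of the 18 shorter ones, beside 50.8%. A summit with a q of 0.05 or less was held by 10 of the 12, beside 56.2%. It was held by 3 of the 18, beside 3295 of the 18352 autosomal protein-coding genes under 100 kb. The list held 120 summits at 2.08 per 100 kb (1.72 to 2.49), with a median fold of 2.77. Among auxiliary subunits, Gsg1l held 12 summits in a window of 224.3 kb (5.35 per 100 kb, 2.76 to 9.34), and Shisa6 and Shisa9 held 8 each. Cacng2, which encodes stargazin, the AMPA receptor trafficking subunit, held 5, with a highest fold of 3.80 (q 0.00162). Among scaffolds, Dlg2, which encodes PSD-93, held 29 in 1993 kb (1.46 per 100 kb, 0.974 to 2.09), and Grip1, whose product binds GluA2 and GluA3, held 11. Dlg2 and Homer1, a postsynaptic scaffold gene, each had a highest fold of 3.63 (q 0.00437). Camk2b, a subunit gene of the calcium/calmodulin-dependent kinase that phosphorylates AMPA receptors, had the highest fold of the list, 3.98 (q 0.000497), and held 5 summits. No summit was found at 7 genes, all under 100 kb, among them the auxiliary subunit genes Cacng7 and Cacng8 and the neuronal pentraxin genes Nptx1, Nptx2 and Nptxr.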

How the data were processed

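A single list of peaks, which the authors called on pooled libraries and deposited as narrowPeak, was analysed. FastQC, Trimmomatic, BWA, SAMtools and MACS2, with builds mm10 and GRCm38.p6, are named in the submitters' processing notes. These notes, as used here, do not state caller settings, duplicate handling or which libraries were pooled. The list has no header: column order and MACS2 conventions identify the deposited fold enrichment, a linear ratio over control at the summit, and each peak's deposited −log10 p and −log10 q. The deposited display score was not used. The lowest −log10 p was 2.00, and no further filter on low values was applied. Depth is unknown, and intervals cover counting error only.

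Summits were placed in RefSeq gene spans of GRCm38.p6 with 10 kb flanks, in 1-based coordinates. Pileup and control level were solved from fold and p (Poisson tail, tolerance 0.002), uniquely for 35529 of 35539 peaks. Fold was taken as pileup plus 1 over control level plus 1. Densities carry exact Poisson 95% intervals, density ratios exact conditional ones, and shares exact Clopper-Pearson ones. No p-value was computed from 1 pooled list. Counting steps were tested on simulated data. Strand and start come from the promoter table, so a start can lie inside the gene's span. No genome sequence was used here, so exons and peak sequences were not analysed. Members, lists, tests and the named-gene rule were chosen with earlier results of these data known. The rule named each member, the neighbouring genes that hold a member summit, and of the accessory list the 5 with most summits and the 3 of highest fold (2 tied). The accessory genes named as without a summit and the 3 promoters shown were chosen after values were seen. Other settings changed the peak threshold, overlap, flank, merging and control level. Software was Python 3.11.15, pandas 2.3.3, SciPy 1.17.1 and Matplotlib 3.10.9.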

Additional observations from a re-analysis of the deposited data

How the results depend on the processing

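Of 70 values from 8 results under 9 planned settings, 55 stayed within 1.5 times (counts) or within the interval or quartiles of the reported value. The other 15 came from stricter peak thresholds. With a q of 0.05 or less, 7 member summits were left at 3 members, or 0.320 per 100 kb, with a median fold of 3.63. The AMPA to NMDA density ratio was then 3.71, and 13 accessory genes had a summit. A summit within 1 kb of an end was left at 0 members, beside 2.20% of autosomal protein-coding genes. With a fold at or above the list's median, 17 summits were left, or 0.778 per 100 kb. With a −log10 q of at least 5, there were 0 summits (0 per 100 kb) and 0 members with a summit, beside 0.135% of autosomal protein-coding genes. There were 0 members with a summit at an end, beside 0.0194% of those genes, and 0 accessory genes with a summit. The density ratio to other genes was 0, with an interval of 0 to 101.8. The median fold and the family ratio could not be computed. Fewer peaks enter under each of these thresholds by construction. Gria1 held 0 summits under each setting except a flank of 20 kb, where it held 1 and the members with a summit numbered 10, beside 66.6% of autosomal protein-coding genes under that flank. Whole intervals, flanks of 0, 5 or 20 kb, merged entries and peaks of high control level left out moved none of the 8 results past these limits, but Grin2c fell from 3 summits to 0 with flanks of 0 or 5 kb. In comparisons added after the data were seen, the gene pairs whose density interval excluded 1 numbered 8, 7 and 8 with flanks of 0, 5 and 20 kb, beside 8 as reported, and the AMPA summits with a q of 0.05 or less fell from 5 to 1 without Gria2. No paired analysis was possible because the list is pooled and its values belong to no single library. For the same reason no replicate could be left out.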
